A study of Danio rerio with 8 samples.

Results

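The genes *hmgb1a*, *hmgb1b*, *hmgb2a*, *hmgb2b*, *hmgb3a*, *hmgb3b*, *hmgn2*, *ptmaa* and *ptmab* encode small, abundant chromatin proteins, and were followed in sorted hindbrain neurons of *phox2a* null zebrafish larvae and of their siblings. They were chosen by symbol from a table of read counts and are 9 of its 28802 gene rows. Because *hmgb3a* and *ptmaa* were singled out as genes with many reads, the read levels given for them are a description. Pools of neurons were collected between 72 and 74 hours post-fertilization (hpf) in 4 experimental repeats, each of which gave 1 bulk RNA library of *phox2a*-/- larvae and 1 of *phox2a*+/+ or +/- siblings. All larvae carried *Tg(-6.7Tru.Hcrtr2:GAL4-VP16)*, the driver that labels vestibular neurons through the reporter *Tg(UAS:E1b-Kaede)*, together with *Tg(isl1:GFP)*, and lacked pigment through loss of *mitfa*. *phox2a* is a transcription factor required to specify the extraocular motor neurons that move the eyes up and down, so the comparison asked whether hindbrain neurons that normally contact these motor neurons keep their transcripts without them. Null larvae were recognised 1 day before the harvest by their missing *isl1* fluorescence and were pooled. Across its experiments the study used 3 mutant alleles, and which of them entered these pools was not given in the sources used here. The sibling pools mixed wildtype and heterozygous larvae, and the sort took green neurons without separating Kaede from GFP, so motor neurons and vestibular neurons outside the tangential nucleus could be included.

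HMGB proteins bend DNA with their paired HMG boxes and carry an acidic tail, and they loosen the contact between DNA and the nucleosome. HMGN proteins bind the nucleosome itself and compete with linker histone H1. Prothymosin alpha is a highly acidic, unstructured protein that in mammals binds histone H1 as a chaperone and also binds Keap1, the inhibitor of the stress factor Nrf2. In mice, Hmgb2 is best known from dividing and precursor cells, and Hmgb1 is the member that is widely expressed and can act outside the cell as an alarm signal. Zebrafish keep duplicate copies, marked a and b, of most of these genes. No protein or promoter sequences of these genes were used.

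Values are given over repeats A, B and C, in that order, 3 libraries a genotype, the repeats by which the genes were chosen, and the fourth repeat (D) is described apart. Gene reads numbered 16992689, 15156983 and 9579375 in the null libraries and 19968857, 19186250 and 18657956 in the sibling libraries. A level is given as counts-per-million (CPM), the reads of a gene scaled to the gene reads of its library, and 3 reads, the limit that a count of 0 allows for counting error, are 0.150 to 0.313 CPM. A library is named by its genotype and repeat, so that null C is the null library of repeat C. Null C stood apart from the other libraries. It had reads on 11087 genes against 16675 to 18409 in the other 5, its unaligned reads were 62.4% of those listed against 11.8% to 16.1%, and its TMM factor was 0.518 against 1.104 to 1.22. The log2 fold changes are therefore also given without it. *phox2a* had 66.2, 185 and 106 CPM in null larvae against 468, 493 and 222 CPM in siblings, lower in the null library of every repeat on this scale. After TMM normalization null C (206 CPM) was above siblings C (201 CPM), and the log2 fold change of *phox2a* was -1.22 (SE 0.62, unadjusted p = 0.084, adjusted p = 1.00 by edgeR). Among markers, *evx2*, expected in tangential nucleus neurons, had 440, 491 and 218 CPM in null larvae against 340, 460 and 379 CPM in siblings. After TMM normalization *evx2* had 398, 449 and 425 CPM in null larvae against 294, 382 and 342 CPM in siblings. Every null library was thus above every sibling library on that scale, as for 458 of the 14824 genes tested (3.09%). The 10 neuronal markers summed to 17439 to 28608 CPM in null larvae against 21192 to 27509 CPM in siblings. The summed motor neuron markers were 256 to 1239 CPM in null larvae and 930 to 2759 CPM in siblings, and skin markers were 0.792 to 1843 CPM in null larvae and 83.5 to 3210 CPM in siblings. The 10 genes of dissociation stress summed to 651 to 861 CPM in null larvae and 1281 to 1811 CPM in siblings. These did not overlap on the CPM scale. The sums were not compared after TMM normalization, where null C, with its low factor, rises against the other libraries. Of the 10, 2 had a log2 fold change above 0. Among single genes, 1115 of the 14824 tested (7.52%) had every null library below every sibling library after TMM normalization. That share is on another scale and for single genes, so it is no background for the stress sum. The part of these other cells, and of stress, in the results was not tested.

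The 9 genes together took 1.67%, 1.58% and 1.80% of gene reads in null libraries, against 1.27%, 1.56% and 1.58% in sibling libraries. The means were 1.68% ± 0.113 and 1.47% ± 0.171 (SD, n = 3 each), and the null mean exceeded the sibling mean by 0.155 points without null C. In repeats A to C each null library lay above every sibling library, although null B exceeded the highest sibling by less than 0.01 points. Siblings D, with reads on 6211 genes only, held 1.99%, more than any null library. Null D held 0.0165%, with 95.4% of its listed reads unaligned, and is not read as a level of null larvae. Over all 4 repeats, with null D included, the means differed by -0.333 points. How often such sums of other genes do not overlap was not counted, so this is no result about the set. After TMM normalization the same sums had means of 2.15% ± 1.18 in null larvae and 1.27% ± 0.162 in siblings, and the null spread came with null C. Reads were not corrected for transcript length, so their order compares reads and not molecules per cell. In bulk libraries, more cells with a transcript and more transcript per cell cannot be told apart.

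*hmgb3a* was the most heavily read *Hmgb* gene in every library of repeats A to C. It had 77786, 64103 and 52321 reads in the null libraries, or 4578, 4229 and 5462 CPM, against 76017, 79286 and 92636 reads in the sibling libraries, or 3807, 4132 and 4965 CPM. It ranked 7, 8 and 8 among all genes by reads in null larvae and 9, 5 and 6 in siblings. The 2 sets of levels overlapped, with means of 4756 ± 635 and 4301 ± 597 CPM (SD, n = 3 each). The *hmgb3b* copy was far less read, at 134, 163 and 14.3 CPM in null larvae against 129, 159 and 139 CPM in siblings. Null C, with 137 reads of *hmgb3b*, was the only low library, and the other 5 ranged from 129 to 163 CPM.

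*hmgb1b* was the second *Hmgb* gene by reads in all 6 libraries. It had 2720, 3063 and 1188 CPM in null larvae against 2140, 2499 and 2882 CPM in siblings, with means of 2324 ± 998 and 2507 ± 371 CPM (SD, n = 3 each). Its copy *hmgb1a* had 616, 466 and 1059 CPM in null larvae against 395, 469 and 541 CPM in siblings, with means of 714 ± 309 and 468 ± 72.8 CPM. On CPM the copies took opposite extremes in null C, which had the lowest *hmgb1b* and the highest *hmgb1a* of the 6 libraries. After TMM normalization null C still had the highest *hmgb1a* (2062 CPM). Its *hmgb1b* (2312 CPM) was then above siblings A (1851 CPM) and siblings B (2074 CPM). In repeats A and B, *hmgb1b* was higher in null larvae by 0.41 and 0.43 on the log2 scale after normalization, and *hmgb1a* by 0.70 and 0.13. In repeat C, *hmgb1b* differed by -0.17 and *hmgb1a* by 2.08.

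*hmgb2a* was close to absent and *hmgb2b* was present at a moderate level. Reads on *hmgb2a* numbered 8, 11 and 0 in null libraries against 15, 10 and 3 in sibling libraries, too few to enter the test. *hmgb2b* had 135, 145 and 244 CPM in null larvae against 103, 304 and 131 CPM in siblings, and the groups overlapped. Siblings B and null C were the high libraries of *hmgb2b*. Summed markers of the cell cycle, among them *pcna* and *mki67*, were 66.7, 129 and 14.2 CPM in null larvae against 45.5, 167 and 27.8 CPM in siblings. Siblings B was thus the highest library for the cell cycle sum and for *hmgb2b*, whereas null C had the lowest cell cycle sum beside its high *hmgb2b*. *mki67* was also highest in siblings B, at 32.1 CPM. *pcna* was not, with 32.7, 52.8 and 0.104 CPM in null larvae against 33.8, 23.4 and 5.47 CPM in siblings. The part of dividing cells in the *hmgb2b* level was not tested.

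*hmgn2*, the single HMGN gene of the set, did not overlap between genotypes in repeats A to C. Its null libraries all lay above the siblings on CPM, as for 246 of the 14824 genes tested (1.66%). Siblings D, described apart and with reads on 6211 genes only, was above all of these libraries at 1671 CPM. *hmgn2* had 1021, 905 and 1020 CPM in null larvae against 574, 868 and 892 CPM in siblings, or means of 982 ± 66.8 and 778 ± 177 CPM (SD, n = 3 each). The gap between the lowest null and the highest sibling library was small, and siblings A was the low library. On CPM, siblings A was the lowest of repeats A to C among siblings for all 8 genes above the counting floor. It also had the highest skin sum (3210 CPM) and the highest motor neuron sum (2759 CPM). Most of that skin sum was *krt4* (2945 CPM), while the skin gene *epcam* was higher in siblings C (177 CPM) than in siblings A (91.5 CPM). The part of such cells in the levels of siblings A was not tested. After normalization the null libraries again lay above the siblings, as for 458 of the 14824 genes (3.09%). The log2 differences within repeats were 0.89, 0.20 and 1.30. Without siblings A, the edgeR log2 fold change of *hmgn2* was 0.65 in place of 0.89.

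The prothymosin gene *ptmaa* was read about as much as *hmgb3a*. It too did not overlap between genotypes in repeats A to C, a pattern of 1.66% of genes tested on CPM with null above. Siblings D, with reads on 6211 genes only, was above all of these libraries at 7014 CPM. *ptmaa* had 87384, 67632 and 45373 reads in null libraries, or 5142, 4462 and 4737 CPM, against 75082, 73842 and 78024 reads in sibling libraries, or 3760, 3849 and 4182 CPM. Mean levels were 4780 ± 342 and 3930 ± 222 CPM (SD, n = 3 each), and *ptmaa* ranked 6, 7 and 12 by reads in null larvae and 10, 8 and 10 in siblings. Its copy *ptmab* had 2313, 2373 and 4314 CPM in null larvae against 1804, 3319 and 2019 CPM in siblings. *ptmab* was high in null C and siblings B, the same libraries in which *hmgb2b* was high, and its groups overlapped. Its 41328 reads in null C were exactly the count of *h3f3a* in that library, and whether this was chance or a fault of the table was not tested.

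**Figure D1:**
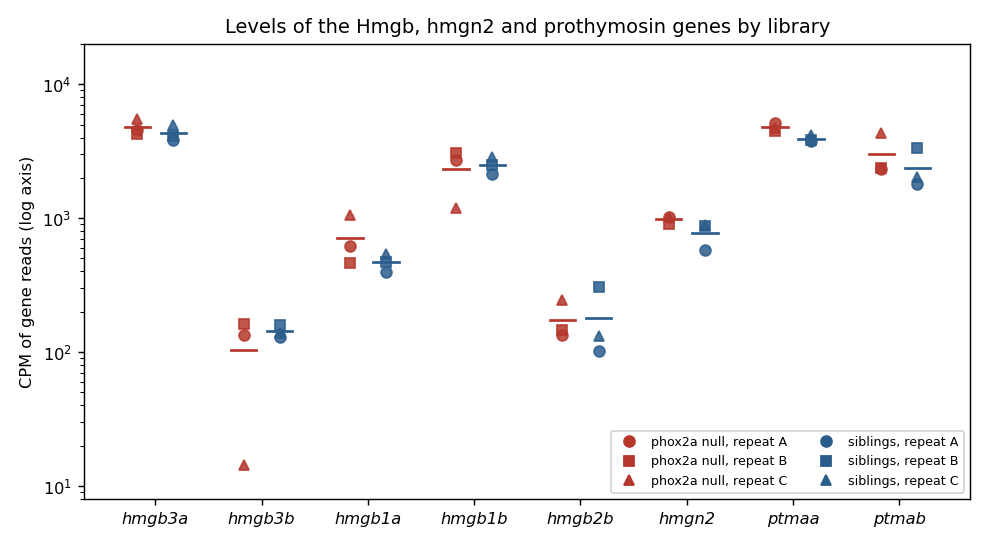
CPM of gene reads on a log axis for 8 of the genes in repeats A to C, with a point a library, *phox2a* null in red to the left of siblings in blue and a bar at each mean (n = 3). Points of both genotypes overlap except for *hmgn2* and *ptmaa*, and the null library of repeat C (triangle) is lowest for *hmgb3b* and *hmgb1b* and highest for *hmgb1a*; *hmgb2a*, with at most 15 reads a library, is not drawn.

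**Figure D2:**
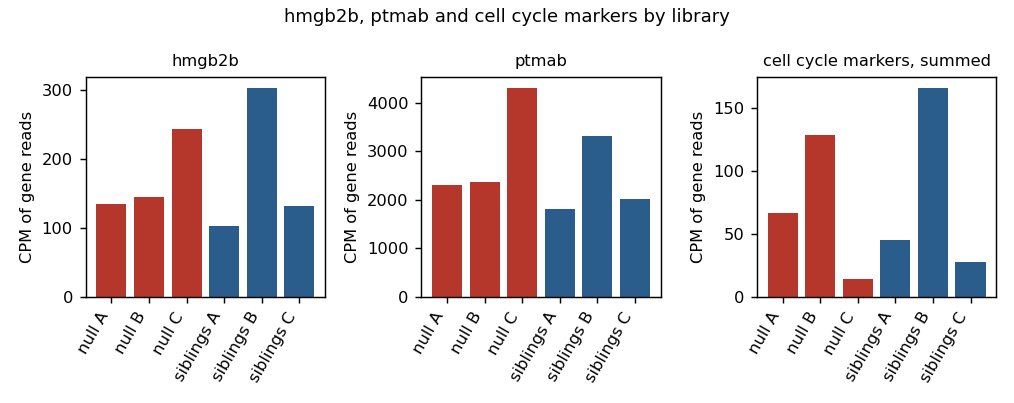
Bars from 0 give the CPM of *hmgb2b*, of *ptmab* and of the summed cell cycle markers in each of 6 libraries, *phox2a* null in red and siblings in blue. Siblings B is high in all 3 panels, at 304, 3319 and 167 CPM, and null C is high for both genes with a cell cycle sum of 14.2 CPM.

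Genotypes were compared across all genes with edgeR's quasi-likelihood test over the 6 libraries, with Benjamini-Hochberg adjustment over 14824 genes. None of the 8 genes that entered this test passed its thresholds, an adjusted p under 0.05 with a log2 fold change beyond 2 in either direction, and neither did any other gene (0%). The largest estimate was that of *hmgb1a*, a log2 fold change of null over siblings of 1.32 (SE 0.67, unadjusted p = 0.082, adjusted p = 1.00 by edgeR). The estimate was 1.04 for *ptmab* (SE 0.64), 0.89 for *hmgn2* (SE 0.51), 0.81 for *ptmaa* (SE 0.46) and 0.73 for *hmgb3a* (SE 0.51). Smaller ones were 0.67 for *hmgb2b* (SE 0.72), 0.21 for *hmgb1b* (SE 0.39) and -0.31 for *hmgb3b* (SE 0.69). All 8 adjusted p-values of edgeR were 1.00. At an unadjusted p under 0.05, 0 of the 8 were higher in null larvae, against 364 of all 14824 genes (2.46%), while 113 were lower. On gene read totals without TMM factors these counts were 122 higher and 111 lower. DESeq2 on the same libraries called 128 of 21539 genes (0.594%), with 1219 at an unadjusted p under 0.05, and none of the 9 was among the calls, with adjusted p-values of 0.79 to 1.00 for the 8 and a missing one for *hmgb2a*.

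The fold changes of the 8 genes had a median of 0.77 and 7 were above 0, whereas the median of all genes tested was -0.15 and 6535 of them, or 44.1%, were above 0. Of the 96 genes with a mean of at least 1000 normalized CPM over the 6 libraries, 81 were above 0, with a median of 0.48. That mean included null C, so a gene high in null C alone could enter through it. *h3f3a*, for example, had 8397 normalized CPM in null C against 234 to 402 in the other libraries. *hmgb3a*, *hmgb1b*, *ptmaa* and *ptmab* were themselves among the 96. Whether the direction was particular to the set therefore cannot be read from this share. Taken relative to the median of all genes, the estimates ran from -0.16 for *hmgb3b* to 1.47 for *hmgb1a*. Scaling by gene read totals moved the median of all genes to -0.36, and on that scale *hmgb1b* (-0.11) and *hmgb2b* (-0.04) were below 0 and *hmgb3a* was at 0.15, still above that median. Without null C, the estimates were 0.36 for *hmgn2*, 0.34 for *ptmaa*, 0.26 for both *hmgb1* genes, 0.12 for *hmgb3b*, 0.09 for *hmgb3a*, 0.04 for *ptmab* and -0.28 for *hmgb2b*. None of these 8 was called either.

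*hmgn2* and *ptmaa* were 2 of the 8 genes whose null libraries all lay above all sibling libraries on the CPM scale, a pattern shown by 246 of the 14824 genes tested (1.66%). They were also the only 2 of the 8 on the normalized scale, where 458 genes (3.09%) showed it. That pattern cannot be lost by leaving out a library, so it was not read again without null C. The 3 libraries a genotype allow no firmer statement for these genes, whose adjusted p-values were 1.00 in edgeR.

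**Figure D3:**
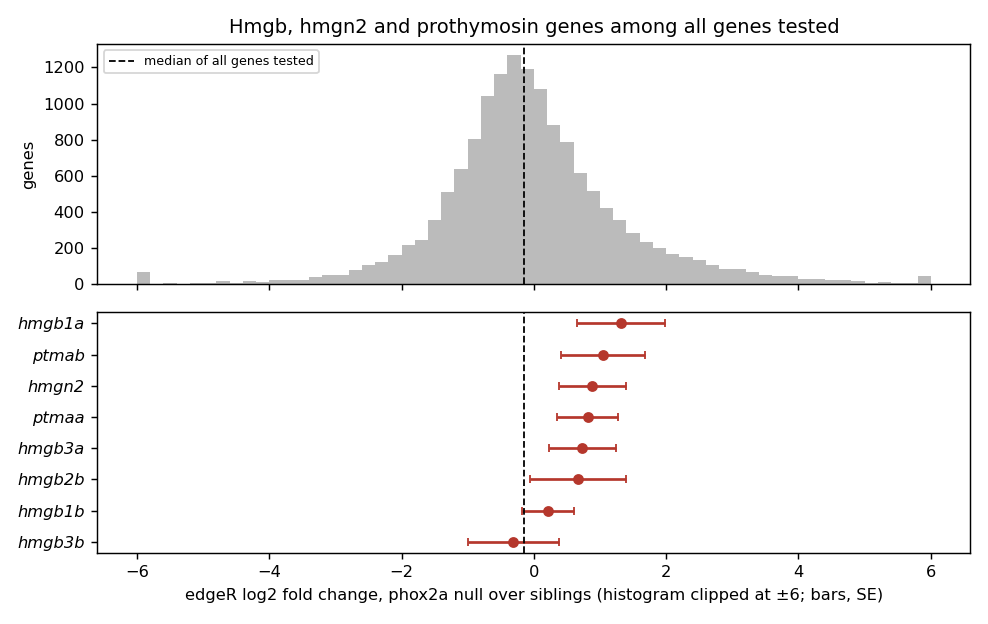
The upper panel counts all 14824 tested genes by edgeR log2 fold change, *phox2a* null over siblings, clipped at 6 on either side, and the lower panel gives the estimates of the 8 genes with bars of 1 SE. The dashed line is the median of all genes (-0.15), and 7 of the 8 points lie to the right of 0.

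Within repeats, 6 of the 8 genes had their largest difference above siblings in null larvae of repeat C after normalization. On CPM without TMM factors this held for 3 of the 8, *hmgb1a*, *hmgb2b* and *ptmab*, while *hmgb3a*, *hmgn2* and *ptmaa* differed by 0.14, 0.19 and 0.18 in repeat C against 0.27, 0.83 and 0.45 in repeat A. After normalization, *hmgb3a* differed by 0.33, 0.17 and 1.25 on the log2 scale in repeats A, B and C, *ptmaa* by 0.51, 0.35 and 1.29, and *hmgb1a* by 0.70, 0.13 and 2.08. The median of all genes was -0.01, -0.01 and -1.66 in the same repeats. *hmgb2b* and *ptmab* took both signs, at 0.45, -0.93 and 2.00 and at 0.42, -0.35 and 2.20. *hmgb3b* differed by 0.11 and 0.17 in repeats A and B and by -2.17 in repeat C. *hmgb3a*, *hmgb1a*, *hmgn2* and *ptmaa* were thus higher in null larvae in 3 of 3 repeats on the normalized scale, and the other 4 were not. On CPM without TMM factors *hmgb1a* was at -0.0097 in repeat B. The share of all genes higher in 3 of 3 repeats was not counted, so this is no result about the set. Of the 96 genes with at least 1000 normalized CPM, chosen by a mean that included null C, 81 had a log2 fold change above 0.

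**Figure D4:**
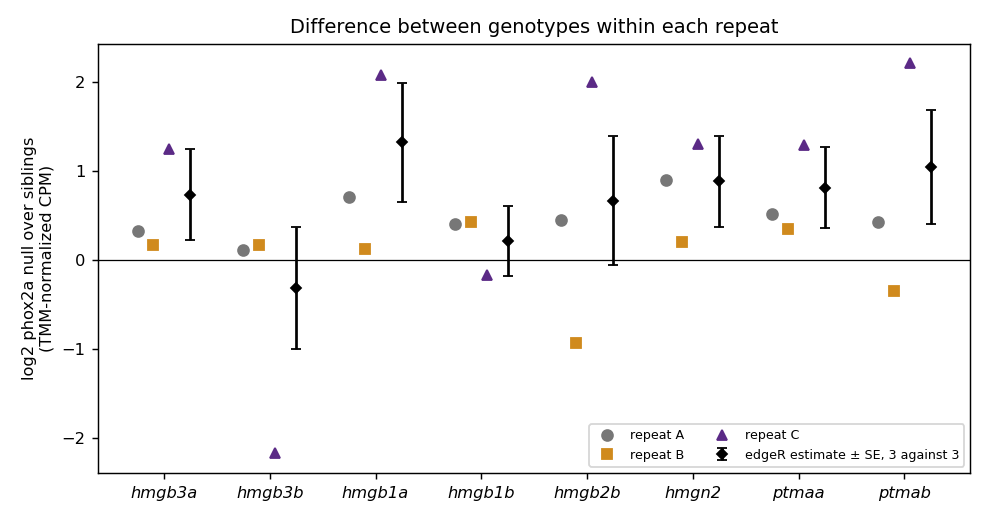
Log2 of null over siblings in TMM-normalized CPM for each gene within repeats A, B and C, beside the edgeR estimate over 3 libraries a genotype with a bar of 1 SE. Repeat C (triangles) lies at 1.25 or more for 6 genes and at -2.17 for *hmgb3b*, while repeats A and B lie between -0.93 and 0.89.

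The share of a pair's reads that falls on each copy does not depend on scaling between libraries. *hmgb1b* held 81.5%, 86.8% and 52.9% of the *hmgb1* reads in null larvae against 84.4%, 84.2% and 84.2% in siblings. The sibling share of 84.3% ± 0.12 varied less than the null share of 73.7% ± 18.3 (SD, n = 3 each), and null C alone was far from the rest. The groups differed by -10.5 points (two-sided exact permutation test, p = 0.4, adjusted p = 0.9 over 4 pairs, where 0.1 is the smallest p that 3 against 3 allow), and by -0.11 points without null C. *hmgb3b* held 2.85%, 3.71% and 0.261% of the *hmgb3* reads in null larvae against 3.29%, 3.71% and 2.73% in siblings (exact permutation p = 0.7). In repeat B this share was nearly the same in both genotypes.

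*ptmab* held 31.02%, 34.7% and 47.7% of the prothymosin reads in null larvae against 32.4%, 46.3% and 32.6% in siblings. Null C and siblings B were again the high libraries, and the genotypes differed by 0.71 points (exact permutation p = 0.9). *hmgb2b* held at least 99.3% of the *hmgb2* reads in each of the 6 libraries (exact permutation p = 0.8). The 95% Clopper-Pearson intervals of a share were at most 1.34 points wide. The *hmgb1b* share of null C and the *ptmab* shares of null C and siblings B thus lay outside counting error of the other libraries. The *hmgb1b* intervals of null A (81.2% to 81.8%) and null B (86.5% to 87.1%) also lay apart from each other and from the siblings. So did the *ptmab* intervals of null A and null B from each other and from siblings A and C. Only the 3 sibling *hmgb1b* shares were named here as lying within counting error of each other. The counting program was not given in the sources used here, and reads that fit both copies could be missing from either. Reads without a unique position were 1.74% to 3.35% of those listed in these libraries.

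**Figure D5:**
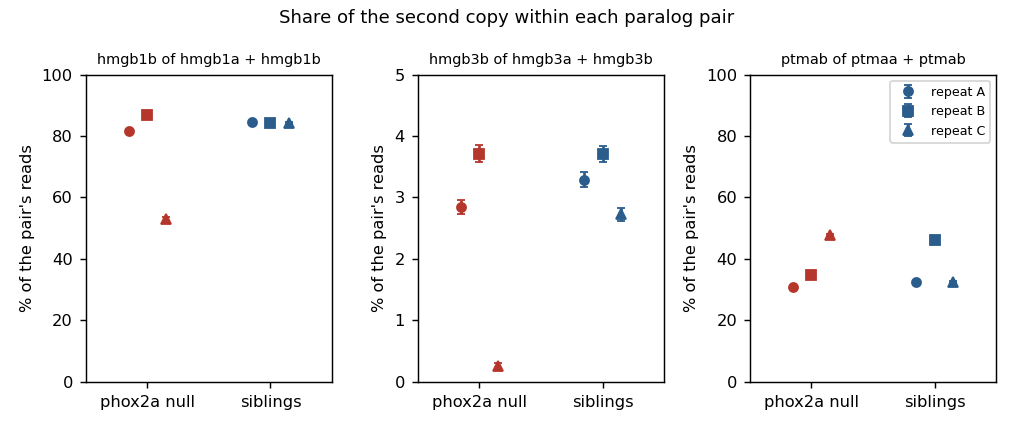
Percent of a pair's reads on *hmgb1b*, *hmgb3b* and *ptmab* in repeats A to C, *phox2a* null in red to the left of siblings in blue, with 95% Clopper-Pearson intervals and a scale up to 5% in the middle panel. The sibling shares of *hmgb1b* lie between 84.2% and 84.4%, and null C (triangle) is the lowest library for *hmgb1b* (52.9%) and *hmgb3b* (0.261%), while its *ptmab* share of 47.7% is near the 46.3% of siblings B.

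Likeness of pattern was described by the root mean square difference of log2 normalized CPM over the 6 libraries, after each gene's mean was removed, among 2172 genes with a mean of at least 100 CPM. *hmgb3a* and *ptmaa* were closest to each other of all pairs of the 8 genes, at 0.15, followed by *hmgn2* with *ptmaa* at 0.18 and *hmgn2* with *hmgb3a* at 0.19. Genes outside the set were nearer still. By nearness to *hmgb3a*, *ptmaa* took place 15 and *hmgn2* place 42. By nearness to *ptmaa*, *hmgb3a* took place 13 and *hmgn2* place 31. The next pair of the 8 was *hmgb2b* with *ptmab*, at 0.24. Copies of a pair were farther apart, at 0.42 for *ptmaa* with *ptmab*, 0.86 for *hmgb1a* with *hmgb1b* and 1.38 for *hmgb3a* with *hmgb3b*. These distances share the same 6 libraries and were not computed without null C. The range over 6 libraries was 1.69 on the log2 scale for *hmgb3a*, against 0.44 among the other 5, but 2.42 against 1.51 for *hmgb2b* and 0.60 with or without null C for *hmgb1b*.

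The 5 genes nearest to *hmgb3a* were *ptp4a1*, a protein tyrosine phosphatase (0.08), *mt-co3*, a mitochondrial subunit of cytochrome c oxidase (0.09), the cochaperone *dnaja2a* (0.10), the phosphatase subunit *ppp2cb* (0.10) and *hist2h2l* (0.10). For *ptmaa*, the nearest gene was *si:ch73-281n10.2* at 0.03, followed by the G protein subunit *gng2* (0.09), the neuronal membrane protein *gpm6aa* (0.11), the phosphatase subunit *ppp1cb* (0.12) and the phosphatase *ptpn5* (0.12). RefSeq names *si:ch73-281n10.2* *hmgn1a*, a gene of the HMGN family. It had 1246, 1094 and 1143 CPM in null larvae against 930, 982 and 1009 CPM in siblings. Each null library was above every sibling library, as for 246 of the 14824 genes tested (1.66%). Its log2 fold change was 0.78 (SE 0.47, adjusted p = 1.00 by edgeR). Because *hmgn1a* was picked for its likeness to *ptmaa* over these 6 libraries, both values follow from that choice and are not a separate result. The copy *hmgn1b*, listed as *si:ch73-1a9.3* and looked up after *hmgn1a* was seen, had 537, 534 and 2075 CPM in null larvae against 450, 757 and 535 CPM in siblings, high in null C and siblings B as *ptmab* was.

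Related genes were taken from lists of 68 genes, of which 56 had a row and 55 were tested. At an unadjusted p under 0.05 by edgeR, 1 of the 55 was higher in null larvae and 0 were lower, against 364 higher (2.46%) among all 14824 genes tested. Of the 55, 36 had a log2 fold change above 0, with a median of 0.29. Above 0 were 44.1% of all genes, with a median of -0.15. Of the 96 genes with at least 1000 normalized CPM, 81 were above 0, with a median of 0.48. The lists were not summarized without null C, so these counts, and those of each list, are no result about the related genes. The remaining HMGN and HMGA genes included *hmgn6*, with 1919, 2067 and 740 CPM in null larvae against 1131, 1472 and 1801 CPM in siblings, and *hmgn7*, with 1722, 1419 and 1009 CPM in null larvae against 1073, 1568 and 1484 CPM in siblings. On this CPM scale, unlike *hmgn2*, both overlapped between genotypes and were lowest among null libraries in null C. They were not compared in this way after TMM normalization. In this list 4 of 5 tested genes were above 0, with a median of 0.40, and none passed at an unadjusted p under 0.05.

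Among 17 tested histone chaperones and acidic nuclear proteins, which share the acidic stretches of prothymosin, 10 were above 0 with a median of 0.21. *anp32a*, an acidic nuclear protein, had a log2 fold change of 0.29 (SE 0.44), *seta*, a histone chaperone, of -0.37 (SE 0.52), and *npm1b*, a nucleophosmin gene, of 2.62 (SE 1.20). *npm1b* had 28.3, 64.7 and 418 CPM in null larvae against 44.3, 77.8 and 47.8 CPM in siblings, so that its estimate came with null C. Linker histones and histone variants were above 0 for 10 of 13, with a median of 0.42. The linker histone gene *histh1l*, of the H1 family that prothymosin binds, had 1761, 1663 and 1619 CPM in null larvae against 1142, 2602 and 1700 CPM in siblings. The single gene of the lists with an unadjusted p under 0.05 was the histone H3.3 gene *h3f3a*, at 416, 363 and 4314 CPM in null larvae against 271, 323 and 445 CPM in siblings, with a log2 fold change of 3.33 (SE 1.24, adjusted p = 1.00 by edgeR). Its high value was that of null C alone.

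Other HMG box genes were above 0 for 6 of 13, with a median of -0.07. They included the thymocyte selection factor *tox* at -0.18 (SE 0.54), the ribosomal RNA transcription factor *ubtf* at 0.35 (SE 0.54) and *hmg20b* at 2.02 (SE 0.96). *hmg20b* had 27.1, 68.4 and 172 CPM in null larvae against 28.7, 51.7 and 39.8 CPM in siblings, with its highest value in null C. Of Keap1, Nrf2 and small Maf genes, 6 of 7 were above 0 with a median of 0.88, and none passed at an unadjusted p under 0.05. *nfe2l2a*, a zebrafish Nrf2 gene, had 45.1, 30.0 and 129 CPM in null larvae against 37.7, 79.5 and 54.6 CPM in siblings, while *keap1a* was at 9.06 CPM or less in every library of repeats A to C.

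In repeat D, the null library had 735217 gene reads on 2214 genes and the sibling library 15865368 on 6211 genes. The null library held from 0 to 82 reads of each of the 9 genes, or 0.0165% of gene reads in all. Its unaligned reads were 95.4% of those listed, and 3 reads were 4.08 CPM there. *hmgb3a* had 10 reads in it, or 13.6 CPM, and *evx2* had 0. The values of this library are therefore not read as levels of null larvae, and the cause was not tested. In the sibling library 40.5% of listed reads were unaligned, against 11.8% to 14.4% in siblings A to C. Those 3 libraries had reads on 16675 to 18409 genes, so CPM in siblings D are spread over fewer genes. The sibling library held 1.99% in all, with 7014 CPM of *ptmaa*, 4528 CPM of *hmgb3a*, 3206 CPM of *ptmab*, 2396 CPM of *hmgb1b*, 1671 CPM of *hmgn2* and 883 CPM of *hmgb1a*. *hmgb2b* and *hmgb3b* were at 125 and 116 CPM there, and *hmgb2a* had 0 reads. The order of *hmgb3a* over *hmgb1b* over *hmgb1a* over *hmgb2b* by reads was thus the same in all 4 sibling libraries.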

How the data were processed

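The authors deposited counts, whole reads per gene and library, after alignment to GRCz11 with the fluorescent reporters added. The aligner and the counting program were not given in the sources used here. A second deposited table, normalized by the authors, was not used. The count columns carry run codes and no replicate numbers, so repeats were lettered by ascending run code. Repeat D was left out of the main tests because the genes were chosen on repeats A to C. Rows that name no gene (5 of them) held 41.2% to 84.3% of listed reads (98.1% in null D) and entered no library size or test. The genes and lists were chosen with earlier results of these data known.

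CPM were taken over gene reads. Genotypes were compared with edgeR 4.0.16 (filterByExpr, TMM factors, glmQLFit and glmQLFTest) in R 4.3.3, 3 libraries against 3 without a block. Alternatives were DESeq2 1.42.0, RLE factors, no TMM, no filter, 10 reads in every library, the repeat as a replicate block, all 4 repeats, and 1 library fewer. SEs came from each coefficient and its F value. Paralog shares were compared by two-sided exact permutation over libraries in scipy 1.17.1. Likeness used log2 normalized CPM with a prior count of 2. The named genes were the 9, *phox2a*, the 5 of closest pattern to *hmgb3a* and to *ptmaa*, and from each list the 2 with most reads and the 2 of largest fold change as examples; *evx2*, *pcna*, *mki67* and *hmgn1b* were named besides. Pools came from separate harvests, and p-values measure the spread between them. Each repeat gave both genotypes, so the pairing was tried as an alternative, the block. Deviations from the genotype means correlated by 0.027, 0.082 and 0.050 within repeats A, B and C over 14824 genes. Replicate libraries differed far beyond counting error.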

Additional observations from a re-analysis of the deposited data

Results flagged for a closer look

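Over 26 groups of 4 libraries checked for a library far from the others (Dixon's test), 6 were found, where chance gives about 1 in 20 groups. In the null library of repeat D, *hmgn2* was at 1.36 CPM and *ptmaa* at 112 CPM, below the other null libraries. That library had 735217 gene reads on 2214 genes, and 95.4% of its listed reads were unaligned. In the sibling library of repeat D, *ptmaa* was at 7014 CPM, above the other sibling libraries, and *hmgb1b* held 73.1% of the *hmgb1* reads against 84.2% to 84.4% in the others. Siblings D had reads on 6211 genes, and 40.5% of its listed reads were unaligned. In siblings B, *hmgb2b* was at 304 CPM against 103 to 131 CPM in the other sibling libraries, and *ptmab* held 46.3% of the prothymosin reads against 31.4% to 32.6%.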

How the results depend on the processing

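No call on a single gene of the 9 depended on a setting, since none was called under any of the fits run. Of 56 fold changes under other settings 3 took the other sign: *hmgb1b* was at -0.11 on gene read totals and -0.15 over all 4 repeats, and *hmgb2b* at -0.039 on gene read totals. Of 48 with a library left out 2 did, both without null C: *hmgb2b* ranged from -0.28 to 1.21 and *hmgb3b* from -0.73 to 0.12. The *ptmab* share differed by -2.81 points over all 4 repeats and by -4.22 to 5.32 points with a library left out, the *hmgb2b* share by -0.14 to 0.17 points and the *hmgb3b* share by -1.69 to 0.0373 points. The summed share differed by 0.215 points, by 0.881 points on normalized CPM and by -0.333 points over all 4 repeats. Genes called were 0 in the main edgeR test, 128 in DESeq2 and 40 over all 4 repeats. Genes at an unadjusted p under 0.05 numbered 477, against 1219 in DESeq2, 1228 without a filter, 233 without TMM and 281 to 1404 with a library left out. Without null C they were 288 higher and 387 lower. Under a replicate block by repeat they were 101, of which 43 were higher and 58 lower, the median of all genes was -0.56, and the estimates of the 8 genes ran from -0.59 for *hmgb3b* to 0.96 for *hmgb1a*; the pairing changed no call among them. The causes were not tested. The depth and breadth of null C and null D, and the breadth of siblings D, limit every value that includes them. *hmgb2a* was near the counting floor throughout.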

Other observations

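In the null library of repeat C, *ptmab* and *h3f3a* had the same count, 41328 reads each, while in the other 2 null libraries *ptmab* had 39296 and 35970 reads and *h3f3a* 7064 and 5495. Whether this identity is chance or a fault of the table was not tested. The null C values of both genes (4314 CPM each and the *ptmab* share of 47.7%) rest on that count. It also enters the log2 fold changes of *h3f3a* (3.33) and *ptmab* (1.04, and 0.04 without null C). The summed share of null C (1.80%) and the likeness of *ptmab* to *hmgb2b* (0.24) include it too.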
